A study of Homo sapiens with 24 samples.

Results

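The aldo-keto reductases are NADPH-dependent enzymes that reduce aldehydes and ketones, among them steroids, prostaglandins, sugars, retinal and the reactive aldehydes of lipid peroxidation. Several of their genes are known targets of NRF2, the transcription factor of the oxidative stress response, which KEAP1 holds in check by marking it for degradation. AKR1C and AKR1B10 transcripts are often abundant in squamous carcinomas with active NRF2. The 7 genes described here were picked by symbol: AKR1C1, AKR1C2 and AKR1C3, which act on steroids and prostaglandins, AKR1B1 (aldose reductase), AKR1B10 (a reductase of retinal and lipid aldehydes), AKR1A1 (aldehyde reductase) and AKR7A2 (a reductase of succinic semialdehyde and of dialdehydes). They are 7 of 61251 genes in the table and of the 13729 tested, which were those whose average reached 1 FPKM in any group. All 7 were tested. FPKM are reads scaled by the length of the gene and the total of the library.

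The 24 RNA libraries come from KYSE450, an established cell line from a human squamous carcinoma of the oesophagus, and form 4 groups of 6. The parental group is the line itself, and the chemoresistant group is a subline titled KYSE450DDP. The parental DTP and chemoresistant DTP groups are the drug tolerant persister cells of each, the state in which some cells outlive a drug. All 4 groups carry the labels KYSE450, ESCC cell and WT, and all are listed as untreated. Apart from the DDP in the titles of the resistant subline, the labels name no drug, dose or time. They state neither how many clones the resistant subline was built from nor whether a group's 6 libraries are separate cultures. The p-values therefore reflect no more than the variation among these libraries, which could be technical. Recovered library totals ran from 14947379 to 37989457 reads, and a count of 0 allows 3 reads, or 0.079 to 0.201 CPM (reads scaled to the library total). All 10 squamous epithelial markers had a mean of at least 1 FPKM in every group, with sums of 2874 to 6003 FPKM per library. Markers of endothelium summed to at most 1.14 FPKM and those of leukocytes to at most 2.65.

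The libraries did not all stand equally close to their groups. By the root mean square of log2 distances over the tested genes, 23 libraries lay 0.134 to 0.25 from the mean of their own group and chemoresistant DTP library 2 lay 0.36 from it. Parental DTP libraries 5 and 6 exceeded libraries 1 to 4 at 8 of 10 genes low in the parental and high in both chemoresistant groups. AKR1C3 and AKR1B10 were among them. The share of all tested genes at which both libraries exceeded libraries 1 to 4 was not counted. Results that rest on these 3 libraries are given with and without them.

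The AKR1C genes lie side by side on chromosome 10 of GRCh38: AKR1C1 (ENSG00000187134) from 4963253 to 4983283 on the plus strand, AKR1C2 (ENSG00000151632) from 4987400 to 5018031 on the minus strand and AKR1C3 (ENSG00000196139) from 5035354 to 5107686 on the plus strand. AKR1B1 (ENSG00000085662, 134442350 to 134459284, minus) and AKR1B10 (ENSG00000198074, 134527592 to 134541408, plus) are neighbours on chromosome 7. AKR7A2 (ENSG00000053371, 19303965 to 19312146, minus) and AKR1A1 (ENSG00000117448, 45550543 to 45570049, plus) both lie on chromosome 1. In the coding sequences of GENCODE release 29, each 972 bases long, AKR1C1 and AKR1C2 were identical at 98.05% of positions, with 19 differences. AKR1C3 matched AKR1C1 at 91.46% and AKR1C2 at 91.05%. AKR1B1 and AKR1B10 matched at 76.18%. Of all 100-base windows along the main transcript, 32.9% in AKR1C2, 17.4% in AKR1C1 and 4.98% in AKR1C3 occurred in another aldo-keto reductase gene, against 2.01% in AKR1B10 and 0.396% in AKR7A2. No such window was shared in AKR1B1 or AKR1A1.

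The stretch from coding base 121 to base 240, counted from the first base of the start codon, shows what a short read has to tell apart. Capitals mark the 8 positions at which the 3 genes are not all alike.
AKR1C1: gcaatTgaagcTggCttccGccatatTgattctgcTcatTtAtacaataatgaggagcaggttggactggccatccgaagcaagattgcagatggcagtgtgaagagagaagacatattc
AKR1C2: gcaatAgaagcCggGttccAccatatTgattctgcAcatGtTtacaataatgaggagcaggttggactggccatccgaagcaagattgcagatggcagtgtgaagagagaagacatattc
AKR1C3: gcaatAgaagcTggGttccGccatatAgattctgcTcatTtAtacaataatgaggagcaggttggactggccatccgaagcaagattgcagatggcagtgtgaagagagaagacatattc
All of the differences lie in the first part of the stretch, and the rest is identical in the 3 genes. AKR1C2 differs from AKR1C1 at 7 positions here and AKR1C3 at 3. Across the whole coding sequence 94 positions are not alike in all 3. How the authors assigned reads that fit more than 1 gene is not given in the sources used here, so the split of reads among AKR1C1, AKR1C2 and AKR1C3 is uncertain, while their sum is less so.

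AKR1C1 and AKR1C2 are also alike in the DNA before their RefSeq starts, which is shown because it is nearly identical in these neighbours. The 84 bases at chr10:4963169-4963252 on the plus strand, just before the annotated AKR1C1 gene, are identical to those at chr10:5004024-5004107 on the minus strand in the RefSeq promoter window of AKR1C2 (GRCh38.p14). The latter stretch precedes a RefSeq start but lies inside the AKR1C2 gene as GENCODE draws it.
AKR1C1 upstream: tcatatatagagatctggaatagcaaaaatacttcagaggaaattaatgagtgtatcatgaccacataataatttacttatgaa
AKR1C2 upstream: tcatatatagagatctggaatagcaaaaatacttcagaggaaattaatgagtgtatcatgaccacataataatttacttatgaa
Over the 250 bases before each RefSeq start, the AKR1C1 and AKR1C2 windows were identical at 245 of the 246 bases that overlap. RefSeq promoter entries were matched for 6 of the 7 genes, AKR1B10 being the one without. The windows were searched on both strands for TGACNNNGC, the core of the antioxidant response element that NRF2 binds with small MAF proteins. It occurred in 10.9% of 35116 promoter windows of this length. Of the 6 genes only AKR7A2 held it, at 3 places in the window chr1:19312147-19312396 on the minus strand, where it stands in capitals.
AKR7A2 promoter: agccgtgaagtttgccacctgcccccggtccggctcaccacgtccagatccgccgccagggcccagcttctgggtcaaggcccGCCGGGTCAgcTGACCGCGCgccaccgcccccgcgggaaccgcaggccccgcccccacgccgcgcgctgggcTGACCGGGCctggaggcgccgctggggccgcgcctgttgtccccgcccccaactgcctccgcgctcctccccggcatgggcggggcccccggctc
The first match is on the opposite strand to the other two. These letters are absent from the 250-base windows of AKR1C1, AKR1C2, AKR1C3, AKR1B1 and AKR1A1, which says nothing of sites elsewhere.

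Between the 2 lines the family moved one way. In such bulk samples fewer cells of a type and less RNA per cell cannot be told apart. In chemoresistant cells all 7 genes were higher than in parental cells, the AKR1C genes and AKR1B10 by more than an order of magnitude and AKR1A1, AKR7A2 and AKR1B1 by factors of 2.89, 1.71 and 1.48 in mean FPKM. Of all genes tested, 48.2% were called higher and 29.4% lower in this comparison, which asks how the resistant subline differs from the line it is named after, and in 39.3% every chemoresistant library lay above every parental one. That held for all 7 members. Relative log expression scaling, which takes off a shift shared by all genes, moved the calls from 6614 higher and 4031 lower to 5369 and 5288. The median log2 fold change was 5.14 over the members and 0.14 over all tested genes.

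AKR1C3, which makes testosterone from androstenedione and is also a prostaglandin F synthase, was barely expressed in the parental line, with 31 to 84 reads per library. Its lowest, median and highest parental levels were 0.475, 0.568 and 0.802 FPKM, and those in chemoresistant cells were 206, 216 and 228 FPKM. The means, 0.610 ± 0.134 and 217 ± 9.28 FPKM (SD, n = 6 each), differ by a factor of 356, and the log2 fold change on the FPKM + 1 scale was 7.09 (SE 0.31, adjusted p = 2.63e-16). This scale understates changes of genes at low levels. AKR1B10 had 29 reads over the 6 parental libraries together, 1 to 7 in each, or 0.0236 to 0.176 FPKM with a median of 0.119. In the chemoresistant libraries it lay between 58.8 and 62.8 FPKM with a median of 59.3. The mean rose from 0.113 ± 0.0532 to 60.2 ± 1.68 FPKM, a ratio of 532 whose precision is set by those 29 reads, and the log2 fold change was 5.78 (SE 0.19, adjusted p = 1.38e-18). For both genes the gap between the groups was far wider than either group.

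AKR1C1, which inactivates progesterone, was at 1.06 to 1.51 FPKM in parental cells (median 1.31) and at 75.6 to 88.4 in chemoresistant cells (median 77.7). Its mean rose from 1.30 ± 0.163 to 80.4 ± 5.76 FPKM, a log2 fold change of 5.14 (SE 0.13, adjusted p = 9.53e-21). AKR1C2, which inactivates dihydrotestosterone, started from a higher level, 4.25 to 6.18 FPKM with a median of 4.79. It reached 202 to 245 FPKM with a median of 228 in the chemoresistant libraries. Its mean was 5.05 ± 0.699 FPKM in the former and 225 ± 15.4 in the latter, and the adjusted p of the log2 fold change, 5.23 (SE 0.14), was 1.44e-20.

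The other 3 members were well expressed in every library, so their changes start from a substantial level. AKR1A1, the aldehyde reductase of most tissues, rose from 20.1 ± 1.58 FPKM (18.6 to 22.7, median 19.96) to 58.2 ± 4.90 FPKM (52.1 to 65.7, median 58.6). Its log2 fold change was 1.49 (SE 0.08, adjusted p = 3.19e-14). AKR7A2 was at 21.9 to 25.7 FPKM in parental cells (median 24.3) and at 39.4 to 44.2 in chemoresistant cells (median 40.6), a log2 fold change of 0.75 (SE 0.07, adjusted p = 4.67e-10). AKR1B1, which turns glucose into sorbitol, had the smallest change of the 7. Its levels were 19.1 to 22.9 FPKM in the parental group (median 20.8) and 27.6 to 33.2 in the chemoresistant group (median 31.6), with a log2 fold change of 0.54 (SE 0.09, adjusted p = 6.15e-06). Under relative log expression scaling the log2 fold changes of AKR1A1, AKR7A2 and AKR1B1 were 1.31, 0.57 and 0.36, and each still passed.

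**Figure D1:**
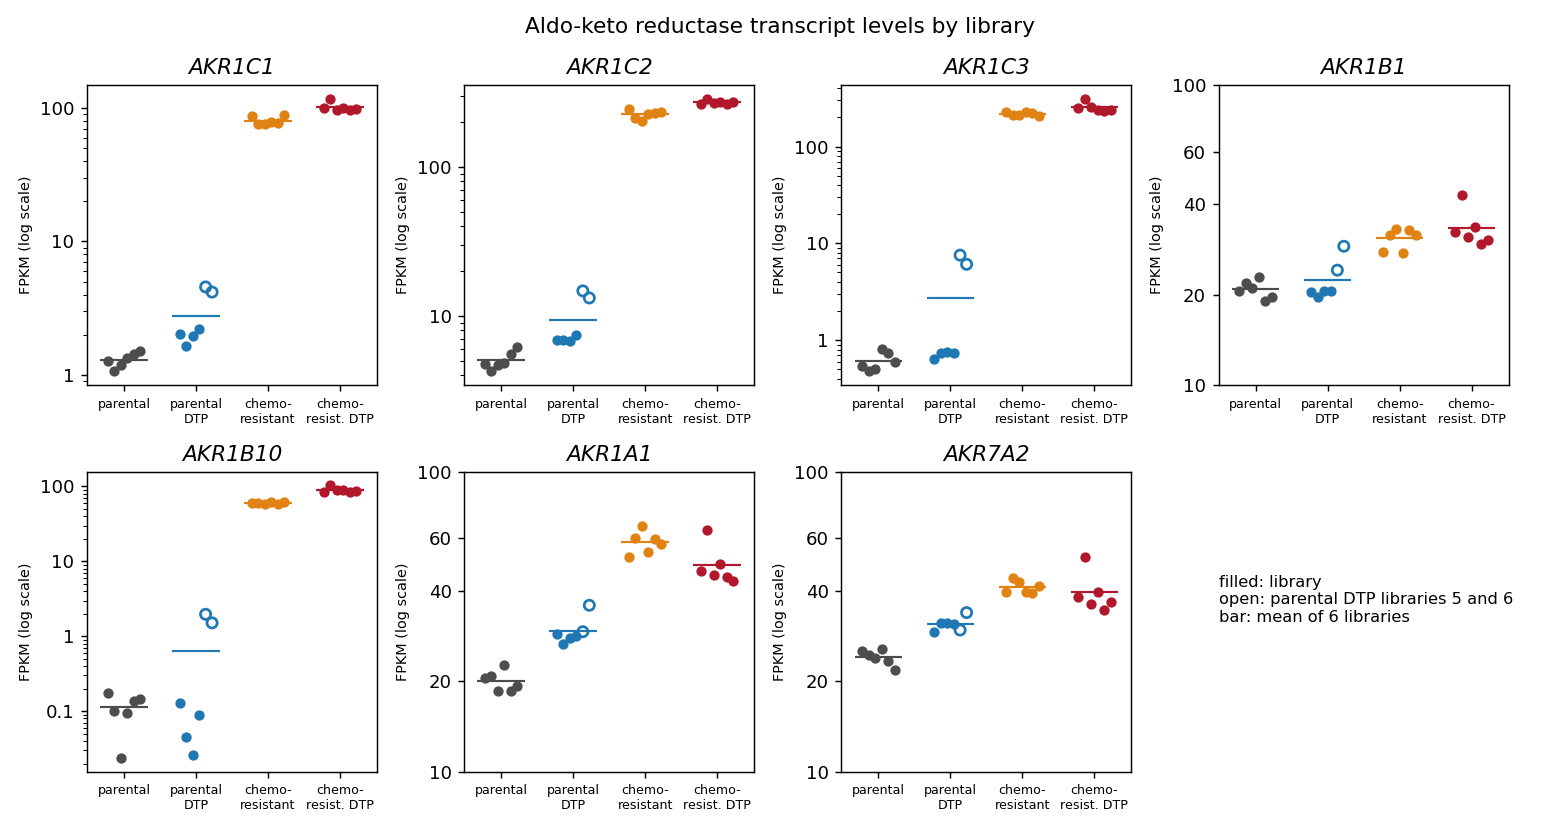
FPKM (log axis) of the 7 genes in each of the 24 libraries, by group. Points are libraries, open circles are parental DTP libraries 5 and 6, and bars are means of 6. AKR1C1, AKR1C2, AKR1C3 and AKR1B10 are near the bottom of their range in both parental groups and AKR1B10 falls to 0.0236 FPKM, whereas AKR1B1, AKR1A1 and AKR7A2 stay between 18.6 and 65.7 FPKM in all libraries. Chemoresistant DTP library 2 is the highest of its group in every panel.

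Among persister cells the line difference was of the same kind. All 7 members were higher in chemoresistant DTP than in parental DTP cells, again with no overlap of libraries, where 29.5% of all tested genes were called higher, 32.3% lower, and 16.5% had every library above. Log2 fold changes were 6.48 for AKR1C3 (SE 0.31, adjusted p = 4.33e-15), 5.95 for AKR1B10, 4.83 for AKR1C1 and 4.78 for AKR1C2. AKR1A1, AKR1B1 and AKR7A2 followed with 0.70, 0.55 and 0.33, the last with an adjusted p of 0.000213. The members' median was 4.78, against -0.02 over all genes tested. Without parental DTP libraries 5 and 6 and chemoresistant DTP library 2 all 7 calls remained.

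The levels of different genes can be set side by side per length of transcript. By CPM per kilobase of the main GENCODE transcript, AKR1C3 and AKR1C2 led in chemoresistant cells with 470 and 387. AKR1A1 followed with 156, then AKR1C1 with 105, AKR1B1 with 79.9, AKR1B10 with 67.1 and AKR7A2 with 53.8. The deposited FPKM use longer gene lengths than these transcripts, 8765 bases for AKR1C1 against a main transcript of 6705 and 3911 for AKR1C3 against 1807, so the same reads give lower values there. The order differs too: by FPKM AKR1C2 (225) stood above AKR1C3 (217), and AKR1C1 (80.4) above AKR1A1 (58.2). In chemoresistant DTP cells AKR1C3 and AKR1C2 were at 550 and 466 on that scale.

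Because the AKR1C reads can be shared out in different ways, their sum was followed as well. Reads of AKR1C1, AKR1C2 and AKR1C3 summed to 46.4 ± 6.12 CPM in parental, 95.3 ± 46.9 in parental DTP, 3008 ± 159 in chemoresistant and 3636 ± 237 in chemoresistant DTP cells (SD, n = 6 each). The parental libraries spanned 38.6 to 55.5 CPM and all parental DTP libraries were above them, from 62.2 to 165. The chemoresistant libraries reached 2795 to 3241 CPM, and those of their DTP cells 3464 to 4113, without overlap.

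The make-up of that sum differed between the lines. AKR1C2 held 70.3% ± 1.49 of the reads in parental and 48.3% ± 0.902 in chemoresistant cells. AKR1C3 went the other way, with 5.14% ± 0.953 in parental (4.23 to 6.84%) and 28.3% ± 1.32 in chemoresistant cells (26.1 to 29.7%), and the ranges did not overlap. The share of AKR1C1 varied little, with group means of 23.4 to 25.7%. In parental DTP cells the AKR1C3 share ran from 3.87 to 17.9%, and its top end came from libraries 5 and 6. These shares were not tested.

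**Figure D2:**
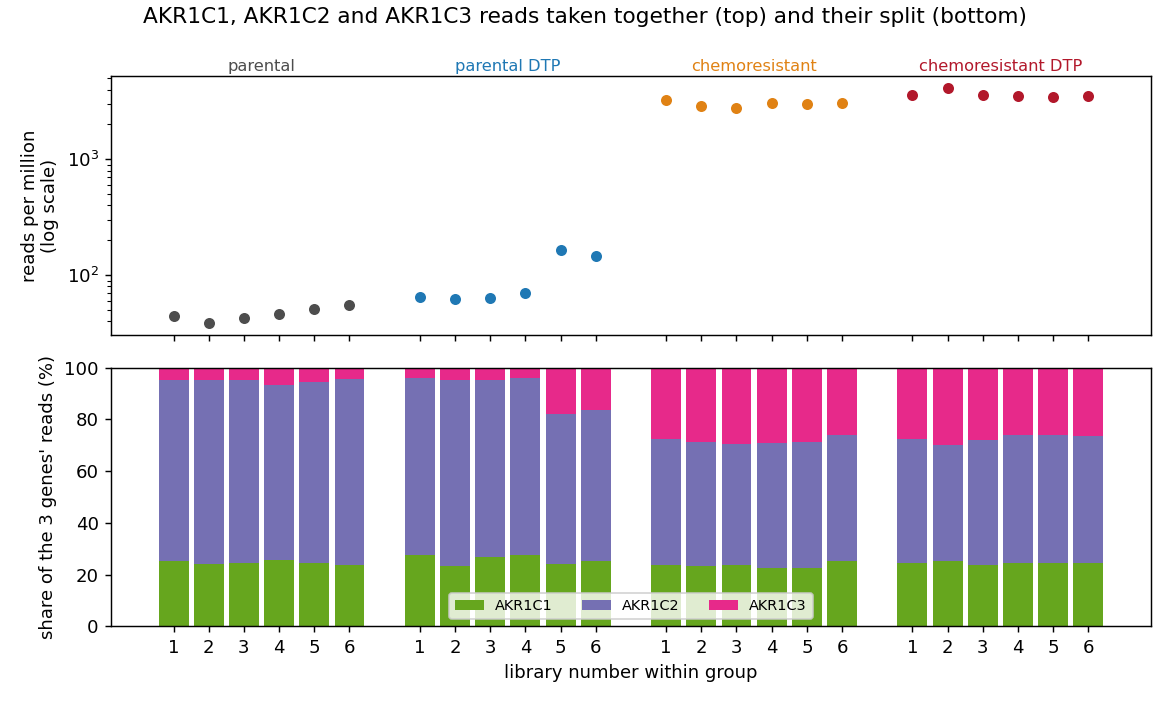
Summed reads of AKR1C1, AKR1C2 and AKR1C3 in CPM (top, log axis), and the share of each gene in that sum (bottom, percent), for every library numbered within its group. AKR1C3 takes 26.1 to 29.8% of the sum in the chemoresistant and chemoresistant DTP libraries and more of it in parental DTP libraries 5 and 6 than in libraries 1 to 4.

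From parental to parental DTP cells, a comparison that asks what sets the persisters apart from the line they came from, 5 members passed as higher: AKR1C1, AKR1C2, AKR1C3, AKR1A1 and AKR7A2. None passed as lower. Nuclear-retained RNAs, 5 genes of which 2 were tested and both were higher, summed to 25.2 to 42.0 FPKM in parental and 51.8 to 61.2 in parental DTP libraries. The sum of the 10 squamous markers was 4700 to 5267 FPKM in the former and 2874 to 3552 in the latter. That sum follows its most abundant genes, with KRT6A going from 1922 to 782 FPKM on average and KRT5 from 1622 to 1163. Of the 10 markers 5 were called lower and 5 higher, TP63 among the latter (93.5 to 165 FPKM). The part of the nuclear-retained RNAs or the squamous markers in the members' changes was not tested. In the same comparison 45.8% of all tested genes were called higher and 19.7% lower, and 32.8% had every DTP library above every parental one, as 4 members had. Under relative log expression scaling 4477 genes were higher and 4413 lower, where the unscaled fit had 6283 and 2711. The median log2 fold change was 0.53 over the members and 0.14 over all genes. Without libraries 5 and 6, AKR1C3 no longer passed, and AKR1C1, AKR1C2, AKR1A1 and AKR7A2 did.

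AKR1A1 was at 26.6 to 35.9 FPKM in parental DTP cells with a median of 28.6, above all parental libraries. Its log2 fold change was 0.53 (SE 0.08, adjusted p = 5.32e-06), 0.46 without libraries 5 and 6. AKR7A2 was at 29.3 to 33.9 FPKM (median 31.2), also above every parental library, with a log2 fold change of 0.35 (SE 0.07, adjusted p = 8.46e-05). That call did not hold under relative log expression scaling, where the change was 0.17 (adjusted p = 0.0896), nor with limma's voom on recovered reads (0.18, adjusted p = 0.0839). Here and below, voom carried the same scaling factors, so it is not a separate check of the scaling. AKR1B1 spanned 19.71 to 29.002 FPKM (median 20.6) and overlapped the parental group. Its log2 fold change was 0.09 (adjusted p = 0.391), which turned to -0.09 under relative log expression scaling.

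AKR1C2 was at 6.87, 6.95, 6.79 and 7.46 FPKM in parental DTP libraries 1 to 4 and at 14.7 and 13.2 in libraries 5 and 6. All 6 lay above the parental range, and the last pair were far above the others. The log2 fold change was 0.71 (SE 0.14, adjusted p = 7.93e-05) and 0.41 without that pair (adjusted p = 1.39e-05). AKR1C1 showed the same split, with 1.65 to 2.20 FPKM in libraries 1 to 4 and 4.56 and 4.18 in libraries 5 and 6. Its log2 fold change was 0.65 (SE 0.13, adjusted p = 0.000153) and 0.36 without them (adjusted p = 7.27e-05).

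For AKR1C3 and AKR1B10 the difference rested on libraries 5 and 6. AKR1C3 was at 0.641, 0.736, 0.763 and 0.734 FPKM in libraries 1 to 4, inside the parental range, and at 7.56 and 6.07 FPKM in libraries 5 and 6. The log2 fold change was 0.82 (SE 0.31, adjusted p = 0.022). It was 0.10 without both libraries (adjusted p = 0.231), 0.51 without library 5 alone (adjusted p = 0.0738) and 0.56 without library 6 alone (adjusted p = 0.0757). It also failed with no filter on low values (0.82, adjusted p = 0.0567), in a fit of the libraries compared alone (0.82, adjusted p = 0.0852) and with voom on recovered reads (1.09, adjusted p = 0.0786). AKR1B10 had 5, 2, 1 and 6 reads in libraries 1 to 4 but 118 and 40 in libraries 5 and 6, which is 0.0259 to 0.129 FPKM against 1.97 and 1.51. Its log2 fold change of 0.40 missed the threshold (SE 0.19, adjusted p = 0.0744), as did that with voom on reads (0.72, adjusted p = 0.422). It passed when any one of the low libraries 1 to 4 was left out (0.47 to 0.50, adjusted p = 0.0283 to 0.0436). On the log2(FPKM + 1) scale it was -0.05 without both libraries (adjusted p = 0.372).

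Libraries 5 and 6 were set against the other genes that mark the resistant line. With a parental mean under 1 FPKM and means of at least 20 FPKM in both chemoresistant groups as the rule, 10 tested genes qualified: AKR1C3, AKR1B10, S100A7, S100A8, S100P, IFI27, PI3, ADH7, IL20RB and GDF15. In 8 of the 10, and in 6 of the 8 outside the family, libraries 5 and 6 both exceeded libraries 1 to 4. The share of all tested genes that did so was not counted, so these counts have no background beside them. Over all tested genes, libraries 5 and 6 lay farther from their group (0.233 and 0.25) than libraries 1 to 4 (0.146 to 0.155). AKR1C3 stood at 0.252 to 0.3001% of its chemoresistant DTP mean in libraries 1 to 4 and at 2.97 and 2.39% in libraries 5 and 6. For S100A8, a calcium-binding protein of squamous and myeloid cells, these figures were 0.350 to 0.586%, 2.72 and 2.56%. For ADH7, a retinol-oxidizing alcohol dehydrogenase, they were 1.36 to 1.96%, 3.81 and 4.39%. GDF15, a stress cytokine, was at 20.5 to 30.9% in libraries 1 to 4 and at 24.3 and 25.7% in libraries 5 and 6. The other exception was IL20RB, an interleukin receptor subunit, at 11.2% in library 5 within the 8.89 to 11.6% of libraries 1 to 4.

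The excess of libraries 5 and 6 over the mean of libraries 1 to 4 was then taken as a percent of the chemoresistant DTP mean. It was 2.56 and 2.18% for AKR1C1, 2.85 and 2.29% for AKR1C2, 2.69 and 2.11% for AKR1C3, and 2.11 and 1.60% for AKR1B10. Over the 8 resistant-line genes outside the family its median was 2.23% in library 5 and 2.57% in library 6. Over all 10, which include AKR1C3 and AKR1B10, it was 2.23 and 2.22%. The 4 family members, whose parental means ran from 0.113 FPKM for AKR1B10 to 5.05 for AKR1C2, had excesses between 1.60 and 2.85%. The 3 members that are well expressed in parental cells had other values, 11.4 and 26.02% for AKR1B1, 2.82 and 16.3% for AKR1A1 and -2.78 and 7.95% for AKR7A2. IFI27 gained 11.4 and 9.83% of its chemoresistant DTP mean but 2.08 and 1.80% of its chemoresistant mean. For S100P these were 2.12 and 4.50% of the former and 4.67 and 9.91% of the latter. Against the chemoresistant DTP mean, IL20RB had 1.54 and 4.58% and GDF15 had -2.26 and -0.84%. S100A7, S100A8, ADH7 and PI3 had 1.88 to 3.11%. Whether these libraries hold RNA or cells of the resistant line was not tested.

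**Figure D3:**
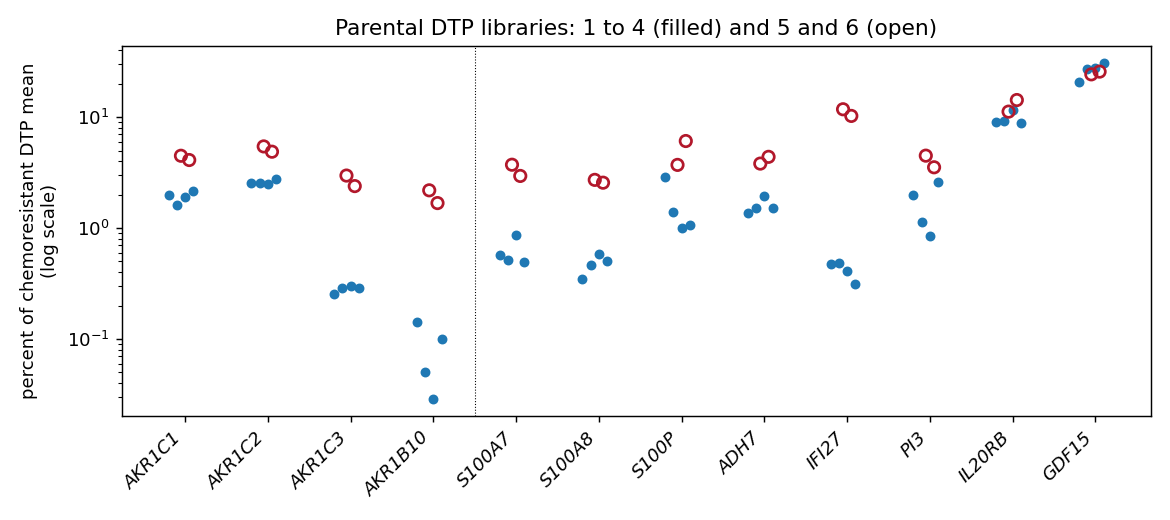
Level of each gene in the 6 parental DTP libraries as a percent of its chemoresistant DTP mean (log axis), with libraries 1 to 4 filled and libraries 5 and 6 open. Left of the dotted line are 4 family members and right of it the 8 genes outside the family that are low in parental and high in both chemoresistant groups. AKR1B10 is at 0.0288 to 0.143% in libraries 1 to 4 and at 2.19 and 1.68% in libraries 5 and 6, while for GDF15 all 6 libraries lie together.

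In the persisters of the chemoresistant line 3 of the 7 members passed, 2 as higher and 1 as lower. Across the alternatives the number higher ran from 0 to 4 and the number lower from 0 to 2. These counts were not tested against the shares over all genes. AKR1B10 and AKR1C1 passed as higher than in chemoresistant cells and AKR1A1 as lower, where 20.5% of all tested genes were called higher and 27.4% lower. Every chemoresistant DTP library lay above every chemoresistant one for 4 members, AKR1B10 and the AKR1C genes, as it did for 10.7% of all genes. The median log2 fold change was 0.22 over the members and -0.02 over all genes tested.

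AKR1B10 was at 84.3 to 104 FPKM in the chemoresistant DTP libraries (median 88.3) and at 58.8 to 62.8 in the chemoresistant ones. The mean rose from 60.2 ± 1.68 to 89.9 ± 7.14 FPKM, by a factor of 1.49, and the log2 fold change was 0.57 (SE 0.19, adjusted p = 0.0175). This was the largest change of the 7 in this comparison, and with a pseudocount of 0.1 FPKM the same fold change did not pass (0.57, adjusted p = 0.362). AKR1C1 was at 96.3 to 118 FPKM (median 99.5), a log2 fold change of 0.33 (SE 0.13, adjusted p = 0.0405) that failed with a pseudocount of 0.1 (0.34, adjusted p = 0.112), with no filter (0.33, adjusted p = 0.0949), with voom on reads (0.36, adjusted p = 0.0521) and without chemoresistant DTP library 2 (0.29, adjusted p = 0.0833). It also failed without any one of chemoresistant libraries 2, 3, 4 and 5 or chemoresistant DTP libraries 1, 4 and 6 (adjusted p = 0.0538 to 0.0717).

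AKR1C2 and AKR1C3 did not pass although their groups did not overlap. AKR1C2 lay between 264 and 287 FPKM in chemoresistant DTP cells (median 269) against 202 to 245 in chemoresistant cells, with a log2 fold change of 0.27 (SE 0.14, adjusted p = 0.112). AKR1C3 lay between 232 and 313 FPKM (median 244) against 206 to 228, with a log2 fold change of 0.22 (SE 0.31, adjusted p = 0.588). The standard errors come from all 24 libraries, so the wide spread of AKR1C3, AKR1C2 and AKR1B10 among the parental DTP libraries enters them. With parental DTP libraries 5 and 6 left out of the fit, 4 members passed as higher: AKR1B10 (adjusted p = 1.03e-09), AKR1C1 (adjusted p = 7.74e-05), AKR1C2 (adjusted p = 0.000698) and AKR1C3 (adjusted p = 0.00575). The fold changes themselves did not move, since neither library belongs to the groups compared. In a fit of the 12 libraries compared, the count was also 4.

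AKR1A1 was the only member called lower in the fit of all 24 libraries. It went from 58.2 ± 4.90 to 48.8 ± 7.65 FPKM, a log2 fold change of -0.26 (SE 0.08, adjusted p = 0.0124), and the groups overlapped because chemoresistant DTP library 2 stood at 63.9 FPKM while the other 5 lay between 43.3 and 49.4. Without that library the log2 fold change was -0.33 (adjusted p = 0.000241). The call was lost under relative log expression scaling (-0.23, adjusted p = 0.057). AKR7A2 was at 34.5 to 51.9 FPKM (median 37.6), overlapping the chemoresistant range, and its log2 fold change was -0.07 (adjusted p = 0.439). Without library 2, its highest value, AKR7A2 passed as lower (-0.15, adjusted p = 0.0103). For AKR1B1, at 29.6 to 43.1 FPKM (median 31.8), the log2 fold change was 0.10 (adjusted p = 0.351).

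**Figure D4:**
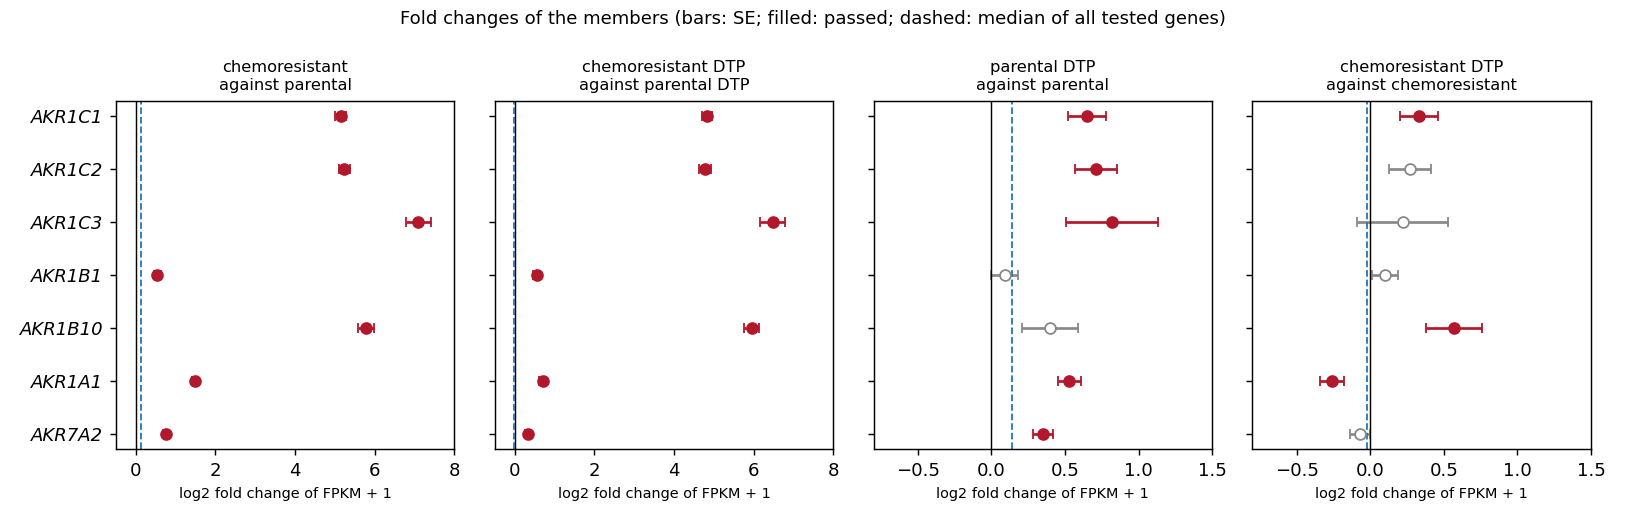
Log2 fold change on the FPKM + 1 scale of the 7 genes in the 4 comparisons between groups, with standard errors as bars. Filled points passed at an adjusted p of 0.05, open points did not, and the dashed line is the median of all tested genes (0.14, -0.02, 0.14 and -0.02 from left to right). The 2 left panels share an axis that reaches 8 and the 2 right panels one that reaches 1.5.

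Whether the persister change differed between the lines was tested as a contrast of its own, the change in the chemoresistant line minus that in the parental line. It was lower for AKR1A1 (-0.78, SE 0.12, adjusted p = 2.7e-06), AKR7A2 (-0.42, SE 0.10, adjusted p = 0.000559) and AKR1C2 (-0.44, SE 0.19, adjusted p = 0.0497), and higher for none. Of all tested genes, 43.4% were called lower and 20.5% higher, with a median of -0.17. Relative log expression scaling moved those counts from 5952 lower and 2812 higher to 4565 and 4252. AKR1A1 rose in the persisters of the parental line and fell in those of the chemoresistant line, and this difference passed under every alternative tried. The AKR1C2 difference was -0.14 (adjusted p = 0.166) without parental DTP libraries 5 and 6. It also failed with no filter (-0.44, adjusted p = 0.108), under upper-quartile scaling (-0.40, adjusted p = 0.0658), under relative log expression scaling (-0.26, adjusted p = 0.231) and with voom (-0.32, adjusted p = 0.174). With 1 library left out at a time it passed without parental 5 or 6, chemoresistant 3, parental DTP 1, 2, 3 or 4, or chemoresistant DTP 2, and failed without each of the others (adjusted p = 0.0533 to 0.0976). That of AKR7A2 was -0.21 (adjusted p = 0.131) under relative log expression scaling. For AKR1B10 the estimate was 0.17 (adjusted p = 0.596), but 0.62 (adjusted p = 6.33e-08) without libraries 5 and 6. AKR1C1, AKR1C3 and AKR1B1 had estimates of -0.31, -0.61 and 0.02 and did not pass, except AKR1C1 with a pseudocount of 0.1 (-0.59, adjusted p = 0.0374).

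Ranked by mean FPKM, AKR1C1, AKR1C2, AKR1C3, AKR1B1 and AKR1B10 all ran parental, parental DTP, chemoresistant, chemoresistant DTP from low to high. AKR1A1 and AKR7A2 changed places at the top, with chemoresistant cells above their persisters. Of the 21 neighbouring pairs of groups, 15 passed. All 7 members were lower in parental DTP than in chemoresistant cells, as were 33% of all genes tested. The 6 that did not were parental and parental DTP for AKR1B1 and AKR1B10, and chemoresistant and chemoresistant DTP for AKR1C2, AKR1C3, AKR1B1 and AKR7A2.

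Markers of hepatocytes, a cell type rich in aldo-keto reductases, were summed per library for comparison. The 6 genes came to at most 0.0942 FPKM in the parental and parental DTP libraries, to 4.53 to 10.2 in chemoresistant libraries, and to 0.0891 to 33.9 in chemoresistant DTP libraries. Within that last group libraries 1 to 4 had at most 0.199 and libraries 5 and 6 had 33.9 and 13.2. AKR1B10 was at 84.4 to 104 FPKM in libraries 1 to 4 and at 84.3 and 87.2 in libraries 5 and 6. AKR1C3 was at 237 to 313 FPKM in the former and at 232 and 239 in the latter. Fibroblast markers, 7 genes, summed to 4.43 to 4.93 FPKM in chemoresistant libraries 1 to 3 and to 14.5 to 19.3 in libraries 4 to 6. In chemoresistant DTP cells they summed to 11.7 to 14.2 FPKM in libraries 1 to 3 and to 2.76 to 3.12 in libraries 4 to 6. In chemoresistant cells the fibroblast sum was mostly COL1A1, with a mean of 6.45 FPKM. DCN (0.043) and PDGFRB (0.0739) were there below their parental means of 0.173 and 0.258, and the other fibroblast markers were above theirs. The hepatocyte sum in these cells was mostly ALB, FGB and APOA1 (2.85, 1.62 and 1.22 FPKM), with TTR at 0.158 and CYP3A4 at 0.00787. The part of these markers in the members' values was not tested.

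The genes whose profile over the 24 libraries was most like each member's were found by the root mean square difference of log2(FPKM + 1) after each gene's own mean was taken off. ADH7, S100A7 (psoriasin) and PI3 (elafin, a protease inhibitor) came closest to both AKR1C1 (0.284, 0.293 and 0.312) and AKR1C2 (0.299, 0.306 and 0.343). S100A9, the partner of S100A8, was closest to AKR1C3 at 0.274, followed by BST2 at 0.658 and S100A8 at 0.672. S100A8 was closest to AKR1B10 at 0.227, with S100A7 at 0.647 next. The profile of AKR1A1 was nearest to that of ECH1, a peroxisomal and mitochondrial enzyme of fatty acid oxidation (0.070). MAF1, a repressor of RNA polymerase III, was nearest to AKR7A2 (0.062), and KRT18, a simple epithelial keratin, to AKR1B1 (0.077). For genes with small changes a small difference is easily reached, so these distances are not comparable between members.

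The 10 other aldo-keto reductase genes looked up were too low to test. AKR1B15, the neighbour and close relative of AKR1B10, had 2 reads over the 6 parental libraries, 6 over the parental DTP, 112 over the chemoresistant and 180 over the chemoresistant DTP libraries, and some of these may be AKR1B10 reads. AKR1C4, the liver form of the AKR1C group, had 0, 1, 19 and 24 reads in the same order. The beta subunit gene KCNAB2 had means of 0.309 to 0.603 FPKM over the 4 groups.

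Genes that regulate NRF2 or answer to it were followed beside the family. The NRF2 gene NFE2L2 went from 15.8 ± 1.78 FPKM in parental cells up to 34.4 ± 3.44 in their persisters (log2 fold change 1.08, SE 0.08, adjusted p = 1.89e-11). It reached 37.3 ± 4.20 in chemoresistant and 44.1 ± 2.49 in chemoresistant DTP cells. KEAP1 fell from 40.2 ± 4.82 to 27.8 ± 4.00 FPKM from parental to parental DTP cells (log2 fold change -0.52, SE 0.09), and was at 53.6 ± 6.59 and 58.5 ± 4.70 in the other groups. Over parental DTP libraries 1 to 4 AKR1C1 averaged 1.96 FPKM and AKR1C2 7.02, against 1.30 and 5.05 in parental cells, and both had passed without libraries 5 and 6, as had AKR1A1 and AKR7A2. AKR1C3 averaged 0.719 FPKM and AKR1B10 0.0723 FPKM there, against 0.610 and 0.113 in parental cells, and neither had passed.

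Of 30 tested NRF2 target genes outside the family, 28 were higher and 1 lower in chemoresistant than in parental cells. The median log2 fold change was 1.12. Of all tested genes, 48.2% were higher and 29.4% lower there. In parental DTP against parental cells 17 were higher and 6 lower (median 0.36), and under relative log expression scaling 15 and 8 (median 0.20). Without that scaling, 45.8% of all tested genes were higher and 19.7% lower in this comparison. From chemoresistant to chemoresistant DTP cells 22 were higher and 4 lower (median 0.33), against 20.5 and 27.4% of all tested genes. Between the DTP groups 29 were higher and none lower (median 1.21), against 29.5 and 32.3%. These list counts were not tested. ADH7 (4.66) and CYP4F11, a fatty acid hydroxylase (3.83), had the largest log2 fold changes between the lines. ABCC2, an export pump for conjugates (2.99), and GPX2, a glutathione peroxidase (2.82), followed. From chemoresistant to chemoresistant DTP cells TXNRD1, thioredoxin reductase, rose from 59.6 ± 3.09 to 134 ± 9.48 FPKM (log2 fold change 1.16, SE 0.06), a larger change than that of any family member.

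Other reducers of carbonyl compounds were also followed. Of 11 tested, 9 were higher and none lower in chemoresistant than in parental cells (median 0.41). The shares over all tested genes were 48.2% higher and 29.4% lower. Under relative log expression scaling 6 of the 11 were higher and 2 lower (median 0.23). BLVRB, biliverdin reductase B, rose from 20.4 ± 2.62 to 91.7 ± 14.4 FPKM (log2 fold change 2.11, SE 0.14). PTGR1, a prostaglandin reductase, rose from 5.79 ± 0.411 to 16.1 ± 0.917 FPKM (1.33, SE 0.05). It rose again to 27.1 ± 2.23 in chemoresistant DTP cells (0.71, SE 0.05). CBR1, carbonyl reductase, fell from 23.7 ± 0.838 to 16.4 ± 0.667 FPKM from parental to parental DTP cells (log2 fold change -0.50, SE 0.06), while AKR1A1 and AKR1C2 rose.

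The pathways in which the enzymes act showed mixed counts. Of all tested genes, 48.2% were higher and 29.4% lower in chemoresistant than in parental cells. Those shares also apply to the polyol and retinoid counts below, and none of these list counts was tested. Of 9 tested steroid enzymes and receptors of 23 listed, 5 were higher and 1 lower in chemoresistant than in parental cells. The lower count was 4 under relative log expression scaling and 3 with voom. HSD17B8 rose (log2 fold change 1.16, SE 0.09) and HSD11B2, which inactivates cortisol, fell (-0.70, SE 0.06). Among prostaglandin genes 9 of 18 were tested, with 5 higher and 3 lower in that comparison. PTGS2, the inducible cyclooxygenase, was at 0.790 FPKM in parental, 11.1 in parental DTP, 5.75 in chemoresistant and 7.96 in chemoresistant DTP cells on average. PTGES, prostaglandin E synthase, rose between the lines (1.03, SE 0.08).

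In the polyol pathway, which AKR1B1 opens, 6 of 8 genes were tested, and 2 were higher and 3 lower in chemoresistant than in parental cells. Under relative log expression scaling and with voom it was 1 higher and 4 lower. SORD, sorbitol dehydrogenase, the next enzyme after AKR1B1, fell (log2 fold change -0.43, SE 0.04), as did the taurine transporter SLC6A6 (-1.05, SE 0.09). Of the retinoid genes 10 of 16 were tested, with 6 higher and 2 lower. ALDH1A1, which oxidizes retinal where AKR1B10 reduces it, rose from 0.907 to 13.1 FPKM on average (2.88, SE 0.08), and ALDH1A3 fell from 36.7 to 13.0 (-1.43, SE 0.06). DHRS3, another retinal reductase, rose from 10.8 to 35.2 FPKM (1.62, SE 0.08).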

How the data were processed

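The 7 genes, the gene lists and the alternatives were chosen with earlier results of these data known. The authors deposited FPKM values for 61251 genes and 24 libraries. GRCh38 is the build named by the submitters' processing notes. Aligner, counter, annotation release and strandedness: not given in the sources used here. In each library a gene's FPKM were multiples of what a single read is worth, so reads were recovered (all 41101 genes above 0, within 0.02 reads or a relative 5e-08). They give the depth, the CPM and an alternative test with limma's voom. In that test the library totals were multiplied by the relative log expression factors.

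Groups came from the labels. The 13729 genes averaging 1 FPKM or more in any group were fitted with limma 3.58.1 (R 4.3.3, mean-variance trend) on log2(FPKM + 1), 4 group means over all 24 libraries, two-sided, with Benjamini-Hochberg adjustment within each comparison and a threshold of 0.05. The method was tested on simulated data. The text names the 7 members, NFE2L2 and KEAP1, up to 4 genes per list with the largest changes that passed at 5 FPKM or more, the 3 genes most like each member, and the resistant-line genes defined in the report. Symbols, coordinates and transcripts came from GENCODE release 29, promoters from RefSeq (GRCh38.p14). Coding sequences were aligned with Biopython. Alternatives were another pseudocount, other filters and scalings, only the libraries compared, a replicate block, and libraries left out. Leaving out chemoresistant DTP library 2 together with parental DTP libraries 5 and 6, and voom, were added after seeing the data. Intervals and floors cover counting error only.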

Additional observations from a re-analysis of the deposited data

Results flagged for a closer look

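In chemoresistant DTP library 2 each of the 7 members stood far above the other 5 libraries of its group: AKR1C1 at 118 FPKM, AKR1C2 at 287, AKR1C3 at 313, AKR1B1 at 43.1, AKR1B10 at 104, AKR1A1 at 63.9 and AKR7A2 at 51.9. In parental DTP library 6 AKR1A1 was apart from the rest of its group at 35.9 FPKM. That makes 8 of 28 groups of 6 values, and 7 of the 8 come from a single library. Chance alone sets apart about 1 in 20 independent groups. The 28 are not independent, being 7 genes in the same libraries, so the count cannot be set against that rate.

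The DTP change, on the log2 scale, differed between the lines by -0.44 for AKR1C2, by -0.78 for AKR1A1 and by -0.42 for AKR7A2. Each was a test of the difference itself. Of all tested genes, 43.4% were called lower in it, with a median of -0.17. AKR1C2 lost its call in 22 of 33 alternatives and AKR7A2 in 2, while AKR1A1 kept it in all.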

How the results depend on the processing

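Over the 7 genes and 5 comparisons, 767 alternative values kept their direction and side of the threshold, 46 lost the call, 15 gained one and 18 turned sign. All 7 calls held in each alternative both between chemoresistant and parental and between the DTP groups. From parental to parental DTP, AKR1B1 was -0.09 under relative log expression (RLE) scaling, -0.10 with voom on recovered reads, and -0.03 without parental DTP libraries 5 and 6, with or without chemoresistant DTP library 2. AKR1B10 was -0.05 without libraries 5 and 6, and again -0.05 with library 2 also left out; it was below the filter when only the libraries compared were used, so that alternative gave no value. In the difference between the lines AKR1C3 was 0.12 without libraries 5 and 6 and 0.06 without library 2 as well, AKR1B10 was -0.27 with a pseudocount of 0.1 and -0.12 with voom, and AKR1B1 ran from -0.06 to 0.09 with 1 library left out. The causes were not tested. Of the alternatives planned, edgeR and DESeq2 were also run on recovered reads. Their code and values were not kept, so all counts of alternatives given here leave them out. The changes named next rest on an earlier run that cannot be rebuilt. Voom was put in the place of edgeR and DESeq2 after seeing the data. It carried the RLE scaling factors, so voom and RLE scaling are not separate checks. In the earlier run edgeR and DESeq2 changed printed calls. With both, AKR1B10 passed in parental DTP against parental and AKR7A2 did not. AKR1C1 and AKR1B10 did not pass in chemoresistant DTP against chemoresistant. In the difference between the lines AKR1C3 passed while AKR1C2 and AKR7A2 did not. DESeq2 did not call AKR1A1 in chemoresistant DTP against chemoresistant, and edgeR called the AKR1C1 difference.

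From chemoresistant to chemoresistant DTP, members higher numbered 0 with a pseudocount of 0.1 in limma, 1 with no filter, 1 with voom, 4 in the libraries compared, 4 without parental DTP libraries 5 and 6 and 4 without library 2 as well. Members lower numbered 0 under RLE scaling in limma and 2 without the 3 libraries. With 1 library left out, higher and lower each ran from 1 to 2. In the difference between the lines 1 member was higher without libraries 5 and 6 and 1 without the 3 libraries, and 1 was lower under RLE scaling and 1 with voom. From parental to parental DTP 3 members were higher with voom.

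Over all genes, parental DTP against parental gave 2951 higher at a mean of at least 5 FPKM, and 4413 lower under RLE scaling and 4447 with voom, against 6283 higher and 2711 lower. A mean of at least 5 FPKM gave 1845 lower in chemoresistant DTP against chemoresistant, 3174 higher in chemoresistant against parental (11775 with no filter), and 2431 higher and 2464 lower between the DTP groups. For the difference between the lines the counts were 4252 higher under RLE scaling, 4225 higher with voom, 9290 lower with no filter and 2738 lower at 5 FPKM.

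Replicate numbers did not pair the libraries: correlations of 36 same-numbered pairs ran from -0.385 to 0.403, and 4 were best with their own number. With the replicate block the AKR1C2 difference was -0.44 (limma, adjusted p = 0.0295), and the block changed no call of a member. Depth limits AKR1B10 in parental cells, with 1 to 7 reads per library.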
